A study of Mus musculus with 3 samples.

Results

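The genes of insulin-like growth factor 1 (Igf1), its receptor (Igf1r) and 6 insulin-like growth factor binding proteins (Igfbp2, Igfbp3, Igfbp4, Igfbp5, Igfbp6 and Igfbp7) were followed through the development of the mouse heart ventricle. These 8 genes were chosen by name from the deposited transcript annotation, and each corresponded to 1 locus of its own among 48617 loci with transcripts. Heart ventricles of C57BL/6 mice were sequenced at E10.5 and E13.5 (E, embryonic day) and at 8 weeks of age (adult), with 1 paired-end total RNA library per stage. The mice of all 3 stages carried no labelled allele or treatment, and how many hearts went into a library is not given in the sources used here. Because each stage had 1 library, no value has a replicate error and no difference between stages was tested.

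Insulin-like growth factors are secreted hormones that act on cells through the receptor tyrosine kinase encoded by Igf1r, from which the signal passes through adaptor proteins to the PI3K and Akt kinases and promotes growth and survival. Igf1 is made in the liver and also locally in many tissues, and its relative Igf2 is the abundant ligand of the fetus. The binding proteins hold the ligands in the extracellular space, prolong their life and either block or deliver them to the receptor. Igfbp7 stands apart in the family, as its product binds insulin-like growth factors weakly and is known from the walls of blood vessels.

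Levels are given in FPKM, the number of sequenced fragments per kilobase of exon, scaled to the mapped fragments of the library, which allows genes of different length to be compared within a library. From the lowest values of spliced loci, 1 FPKM over 1 kb was estimated to rest on 16, 30.8 and 21.1 fragments in the E10.5, E13.5 and adult libraries. Where values are given without a stage, they follow this order. Intervals in parentheses are approximate 95% Poisson or binomial intervals built on these estimates, and they cover counting error only and not differences between animals. All 6 markers of ventricular cardiomyocytes were detected at 533 FPKM or more in each library. Changes between stages are differences of log2(FPKM + 1), where 1 is about a 2-fold change and low values are understated. The embryonic step is the change between both embryonic libraries, the late step that between E13.5 and adult ventricle, and the whole span that between E10.5 and adult ventricle. Over the 12569 mRNA loci that reached 1 FPKM in any library, the median change was 0.17 in the embryonic step, -0.50 in the late step and -0.40 over the whole span, and most changes of the members are therefore also given relative to this median.

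The same 3 binding protein genes led in both embryonic libraries, and another one led in the adult library. At E10.5 the highest were Igfbp4 and Igfbp5 at 114 and 111 FPKM, a ratio of 1.03 (0.987 to 1.06) that counting error does not separate. Igfbp2 followed at 39.4 FPKM and Igf1r at 26.0 FPKM. Igfbp7, Igf1 and Igfbp3 formed a group at 12.5, 10.7 and 10.03 FPKM whose neighbours were not separated by counting error. Igfbp6 came last with 0.683 FPKM. At E13.5 Igfbp4, Igfbp5 and Igfbp2 kept the first 3 places, Igf1 and Igfbp7 lay side by side at 22.8 and 22.6 FPKM (ratio 1.01, 0.912 to 1.12), Igf1r was in place 7, and Igfbp6 was again last. In the adult Igfbp7 was first with 166 FPKM, 8.36 times the level of Igfbp4 in second place (7.76 to 9.01), and Igfbp2 was last. Igf1r and Igf1, at 6.50 and 5.78 FPKM, were not separated there (ratio 1.13, 0.944 to 1.36). Among mRNA loci, Igfbp4 stood at percentile 96.5 at E10.5 and 79.2 in the adult library, whereas Igfbp7 stood at 57.0 and 98.003.

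**Figure D1:**
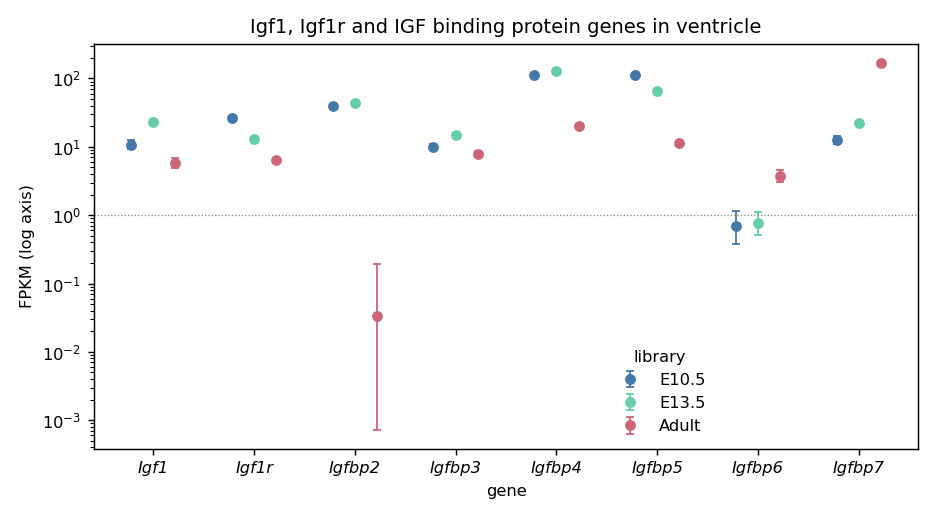
FPKM of each gene (x axis) in the E10.5, E13.5 and adult library on a log axis. Points are single libraries, bars are approximate 95% counting intervals, and the dotted line marks 1 FPKM. Igfbp7 and Igfbp6 have their highest point in the adult, while the adult point of Igfbp2 lies near 0.0338 FPKM with a long bar.

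The sequence before the start site is shown for the members that changed by 1 or more over the whole span and whose window held no exon of the gene, so that the genes that were lower in the adult (Igf1r, Igfbp2) can be read beside those that were higher (Igfbp6, Igfbp7). Igfbp4 and Igfbp5 also changed by this much, but assembled exons reach into their windows, as they do by 65 bases into that of a further RefSeq start of Igfbp2, which is not a start in the deposited annotation and held 0 GC boxes and 11 CpG dinucleotides. Each run holds the 250 bases before the RefSeq start (GRCm38.p6), 5′ to 3′ on the strand of the gene. The windows are chr7:67952007-67952256 on the plus strand for Igf1r, chr1:72824230-72824479 on the plus strand for Igfbp2, chr15:102143936-102144185 on the plus strand for Igfbp6 and chr5:77408046-77408295 on the minus strand for Igfbp7. Capitals mark matches on either strand to the GC box (GGGCGG), the TATA box (TATAAA) and the CCAAT box (CCAAT), none of which overlapped each other.
Igf1r: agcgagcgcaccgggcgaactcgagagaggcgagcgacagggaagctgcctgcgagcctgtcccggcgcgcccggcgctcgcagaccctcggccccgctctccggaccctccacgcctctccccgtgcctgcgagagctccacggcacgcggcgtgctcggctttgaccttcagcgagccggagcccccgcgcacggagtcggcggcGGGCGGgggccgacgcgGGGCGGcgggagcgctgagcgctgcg
Igfbp2: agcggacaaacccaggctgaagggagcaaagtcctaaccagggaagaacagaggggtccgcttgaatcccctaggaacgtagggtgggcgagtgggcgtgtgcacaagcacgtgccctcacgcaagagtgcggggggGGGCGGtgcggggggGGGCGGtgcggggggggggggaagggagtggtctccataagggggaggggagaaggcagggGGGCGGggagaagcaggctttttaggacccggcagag
Igfbp6: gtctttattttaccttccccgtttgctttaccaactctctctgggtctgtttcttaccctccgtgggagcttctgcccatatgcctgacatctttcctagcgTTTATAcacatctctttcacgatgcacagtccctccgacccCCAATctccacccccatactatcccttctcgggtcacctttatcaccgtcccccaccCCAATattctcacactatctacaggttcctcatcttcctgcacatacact
Igfbp7: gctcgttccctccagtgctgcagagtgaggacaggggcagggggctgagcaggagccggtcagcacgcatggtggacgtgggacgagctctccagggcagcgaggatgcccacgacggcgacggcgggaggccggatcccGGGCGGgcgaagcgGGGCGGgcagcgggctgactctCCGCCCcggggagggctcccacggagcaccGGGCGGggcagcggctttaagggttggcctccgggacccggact
The windows of Igf1r, Igfbp2 and Igfbp7 held 2, 3 and 4 GC boxes, while that of Igfbp6 held none. A GC box was present in 32.7% of 32851 promoter windows of this length. Igfbp6 had 1 TATA box on the opposite strand, 148 bases before the start, and 2 CCAAT boxes, motifs found in 12.4% and 33.8% of windows. CpG dinucleotides numbered 42 for Igf1r, 26 for Igfbp7, 14 for Igfbp2 and 7 for Igfbp6, against a median of 6. A gene lower and a gene higher in the adult thus both had GC-rich windows, and these matches are letters and not tested sites.

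Igf1 was examined first, as the ligand (chromosome 10, 87859056 to 87937047, plus strand). Its levels were 10.7 (9.22 to 12.4), 22.8 (21.2 to 24.5) and 5.78 FPKM (4.83 to 6.85). The E13.5 library was the highest and the adult the lowest. The embryonic step was 1.02 (0.81 to 1.24), or 0.85 relative to the mRNA median, and the late step was -1.81 (-2.05 to -1.58), or -1.31 relative to the median. Over the whole span the change was -0.79, or -0.39 relative to the median. The annotation holds 6 Igf1 transcripts of 4 or 5 exons from 2 start sites 2055 bp apart, corresponding to alternative first exons. The matched transcripts run from 1087 to 7121 nt, and since values were deposited per locus, the start sites and 3′ ends of Igf1 could not be followed separately.

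Igf1r, the receptor gene (chromosome 7, 67952257 to 68233714, plus strand, 3 transcripts of 13 to 22 exons), was at 26.0, 12.9 and 6.50 FPKM. Each library was thus lower than the one before it. Its change was -0.96 (-1.01 to -0.91) in the embryonic step and -0.89 (-0.96 to -0.81) in the late step, which adds up to -1.85 (-1.92 to -1.77). Relative to the mRNA median these changes were -1.13, -0.38 and -1.45. Ligand and receptor therefore took different courses, and the ratio of Igf1 to Igf1r, which does not depend on how the libraries are scaled, was 0.412, 1.77 and 0.888.

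Igfbp2, Igfbp4 and Igfbp5 were the binding protein genes that were lower in the adult. Igfbp2, whose product is abundant in fetal tissues and serum (chromosome 1, 72824480 to 72852471, plus strand), was at 39.4 (36.8 to 42.1), 43.3 (41.3 to 45.3) and 0.0338 FPKM (0.00071 to 0.196). The embryonic libraries lay close together, and the adult value corresponds to about 1 fragment. The level at E10.5 was 1165 times the adult level, with a counting interval of 197 to 43499, so its size is poorly determined. On the log2(FPKM + 1) scale its whole-span change was -5.29 (-5.39 to -5.06), or -4.89 relative to the median, at percentile 0.438 of mRNA loci.

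Igfbp4 (chromosome 11, 99040017 to 99052820, plus strand), which encodes a binding protein known to hold the ligands away from the receptor until it is cleaved by the protease Pappa, was at 114, 130.3 and 19.9 FPKM. Both embryonic values were above the adult value. The change was 0.20 (0.14 to 0.25) in the embryonic step and -2.65 (-2.75 to -2.56) in the late step, or 0.03 and -2.15 relative to the median. Igfbp5, whose product binds extracellular matrix (chromosome 1, 72857942 to 72874975, minus strand), was at 111, 66.1 and 11.5 FPKM. It was lower at each later stage, with changes of -0.74 (-0.78 to -0.70) and -2.43 (-2.50 to -2.35), or -0.91 and -1.92 relative to the median. Over the whole span Igfbp5 as deposited was 9.67-fold lower (9.14 to 10.2), against 5.72-fold lower for Igfbp4 (5.31 to 6.16). On the log2(FPKM + 1) scale these changes were -3.17 and -2.46, or -2.77 and -2.06 relative to the median. The ratio of Igfbp4 to Igfbp5 within a library was 1.03, 1.97 and 1.73.

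Igfbp7 and Igfbp6 were higher in the adult. Igfbp7 (chromosome 5, 77349240 to 77408045, minus strand) was at 12.5 (10.95 to 14.3), 22.6 (21.01 to 24.2) and 166 FPKM (161 to 171). It was higher at each later stage, with changes of 0.80 (0.60 to 1.004) and 2.83 (2.72 to 2.94), or 0.63 and 3.33 relative to the mRNA median. Its adult level as deposited was 13.3 times that of E10.5 (11.6 to 15.2), a change of 3.63 (3.44 to 3.81) at percentile 98.99 of mRNA loci. Relative to the mRNA median this change was 4.02, and with median-of-ratios scaling it was 4.03. The last 89 bp of the Igfbp7 locus overlap that of Polr2b, an RNA polymerase II subunit gene on the other strand, which was at 42.5, 48.4 and 30.5 FPKM and thus lowest in the adult. The library kit keeps strand, and whether the values used it is not given in the sources used here.

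Igfbp6, which encodes a binding protein that prefers Igf2 over Igf1 (chromosome 15, 102144186 to 102149512, plus strand), was at 0.683 (0.374 to 1.14), 0.768 (0.520 to 1.09) and 3.71 FPKM (3.02 to 4.50). The embryonic values rest on about 14.1 and 30.5 fragments and were not separated by counting error, with a change of 0.07 (-0.34 to 0.45). The whole-span change was 1.48 (1.07 to 1.85), or 1.88 relative to the median, and a ratio of 5.43 (3.12 to 10.4). Igfbp6 passed the limit of 1 FPKM only through the adult library.

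Igfbp3, whose product is the main carrier of Igf1 in blood (chromosome 11, 7205838 to 7213923, minus strand), was at 10.03, 15.0 and 7.74 FPKM. Its highest value was at E13.5, as for Igf1, but its changes were smaller, at 0.54 (0.38 to 0.69) and -0.87 (-1.02 to -0.72). Over the whole span its change was -0.34 (-0.52 to -0.15) as deposited but 0.06 relative to the mRNA median and 0.03 with median-of-ratios scaling, so that no direction can be given.

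Next, the make-up of the binding protein transcripts was computed within each library, since shares do not depend on the scaling between libraries. The summed level of the 6 binding protein genes as deposited was 287, 278 and 209 FPKM. Unlike the shares, this sum depends on the scaling, whose median-of-ratios factors were 1.07, 1.19 and 0.804. No change of the sum between stages is therefore read from it. Igfbp4 and Igfbp5 together took 78.2%, 70.6% and 15.0% of it. The share of Igfbp7 was 4.37%, 8.12% and 79.5%, and that of Igfbp2 was 13.7%, 15.6% and 0.0162%. Igfbp3 and Igfbp6 together stayed between 3.73% and 5.67%. The sum was therefore made up mostly of Igfbp4, Igfbp5 and Igfbp2 in the embryonic libraries and mostly of Igfbp7 in the adult library.

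**Figure D2:**
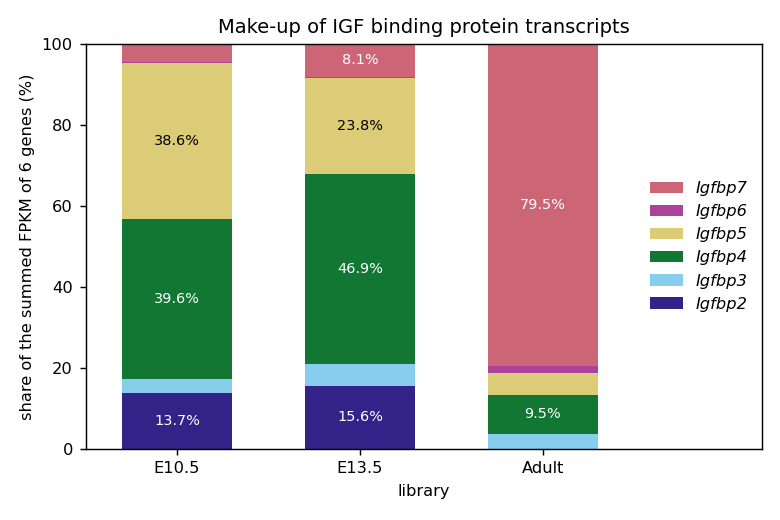
Stacked bars of the share (%) of each of 6 binding protein genes in their summed FPKM, for the E10.5, E13.5 and adult library, with shares above 6% printed in the bars. Igfbp4 and Igfbp5 fill most of the embryonic bars and Igfbp7 takes 79.5% of the adult bar.

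The changes of all 8 genes were then set beside those of all mRNA loci. In the embryonic step, 1 member (Igf1) was higher by 1 or more, against 5.89% of mRNA loci, and 0 members were lower, against 4.85%. Igf1r lay just inside the limit, and with median-of-ratios scaling the counts were 0 higher and 1 lower (Igf1r, -1.10, with Igf1 at 0.87), and the shares of mRNA loci were 4.18% and 6.29%. In the late step, 2 members (Igfbp6 and Igfbp7) were higher, against 13.0% of mRNA loci, and 4 (Igf1, Igfbp2, Igfbp4 and Igfbp5) were lower, against 32.1%. Over the whole span, the same 2 were higher, against 14.8%, and 4 (Igf1r, Igfbp2, Igfbp4 and Igfbp5) were lower, against 27.3%. With median-of-ratios scaling the members counted in both adult comparisons were the same genes, while the shares of mRNA loci became 20.8% higher and 18.9% lower in the late step, and 19.97% and 18.4% over the whole span. The median change of the 8 genes was 0.16, -1.35 and -1.32 in the embryonic step, the late step and the whole span. The comparisons share libraries, so they are not independent of each other.

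**Figure D3:**
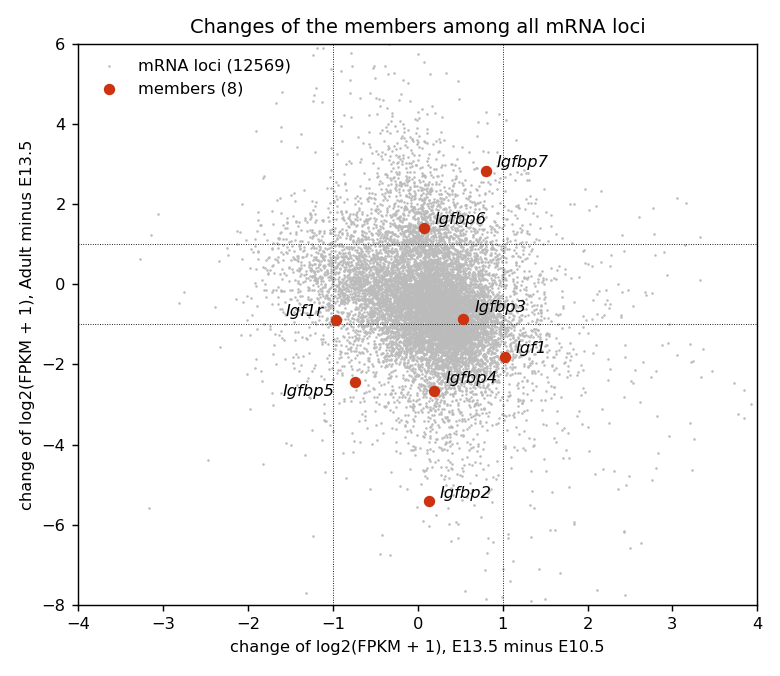
Difference in log2(FPKM + 1) in the embryonic step (x axis) and in the late step (y axis) for 12569 mRNA loci (grey) and the 8 members (red), with dotted lines at -1 and 1 and 38 loci beyond the axes. Most members spread along the vertical axis, from Igfbp2 at -5.42 to Igfbp7 at 2.83. Along the horizontal axis, Igf1 lies at 1.02 and Igf1r at -0.96.

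Markers of the cell types that a ventricle can hold also changed between the libraries, and fewer cells of a type cannot be told apart from less RNA per cell in bulk tissue. Along with Igfbp2, Igfbp4 and Igfbp5, the 4 genes listed as atrial myocyte markers summed to 6382, 6766 and 40.9 FPKM. Whether these 4 genes mark atrial cells in embryonic ventricle was not tested, so their sums are not a measure of atrial cells. The 5 epicardial markers summed to 110, 108 and 16.5 FPKM. The 5 liver markers, from a tissue that makes Igf1 and Igfbp2, summed to 8.08, 18.4 and 0.218 FPKM, with 2, 4 and 0 of them reaching 1 FPKM. Serpina1b was listed at 0 at E10.5 and Alb, the albumin gene, in the adult. The 5 erythroid markers summed to 6758, 16348 and 24.5 FPKM, most of it from the globin genes Hba-x, Hbb-bh1 and Hbb-y in the embryonic libraries. Alas2, in the same list, was at 18.2, 34.1 and 19.6 FPKM and gave most of the adult sum. These sums therefore do not measure erythroid cells. Along with Igfbp7, the median of the 6 smooth muscle and pericyte markers was 9.21, 13.2 and 55.3 FPKM, while their sum was 1161, 913 and 506 FPKM, most of it from Acta2 in the embryonic libraries. Rgs5, a pericyte gene, was at 9.81, 47.2 and 239.8 FPKM. The 6 endothelial markers summed to 290, 214 and 283 FPKM as deposited, and to 271, 179 and 353 FPKM with median-of-ratios scaling. In the late step, Cdh5 and Kdr changed by 1.80 and 1.56 as deposited, and Tek and Tie1 by -0.67 and -0.60. Pecam1 and Emcn changed by 0.60 and -0.14. With median-of-ratios scaling, Cdh5, Kdr and Pecam1 changed by 2.34, 2.12 and 1.16. Emcn, Tek and Tie1 then changed by 0.42, -0.12 and -0.05, so the opposite signs depend on the scaling. The 6 markers of macrophages, cells that can express Igf1, summed to 6.59, 51.8 and 155 FPKM, and 5 of them were higher at each later stage, while Cd163 was at 0.205, 0.00839 and 6.00 FPKM. The 6 fibroblast markers summed to 127, 320 and 436 FPKM, of which Dcn gave 351 in the adult. Their median was 15.0, 49.8 and 19.7 FPKM, and every one but Dcn was lower in the adult than at E13.5. The 5 fast skeletal muscle markers summed to 300.1, 183 and 107 FPKM, of which Acta1 alone gave 266, 171 and 105. Mylpf was at 29.9, 8.69 and 1.46 FPKM and Tnnt3 at 4.21, 3.47 and 0.563 FPKM, whereas Myh1 and Myh4 stayed below 1 FPKM in every library. The part of these cell types in the changes of the members was not tested.

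To place the members in their pathway, a list of 42 other genes of insulin-like growth factor signalling was examined, of which 38 reached 1 FPKM in at least 1 library. Over the whole span, 8 were higher and 11 lower by 1 or more, with a median change of -0.21, against 14.8% higher and 27.3% lower of all mRNA loci and their median of -0.40. With median-of-ratios scaling, 8 were higher and 7 lower, against 19.97% and 18.4% of mRNA loci. In the embryonic step, 1 was higher and 6 were lower, against 5.89% and 4.85% of mRNA loci. In the late step 6 were higher and 10 lower, against 13.0% and 32.1%, and with median-of-ratios scaling 11 and 7, against 20.8% and 18.9%. The counts over the whole span thus lay near the shares of all mRNA loci.

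Among ligands and further binding proteins, Igf2, the fetal ligand, was at 566, 451 and 3.19 FPKM, with a whole-span change of -7.08. Within each library, Igf1 thus made up 1.86%, 4.81% and 64.5% of the summed FPKM of both ligand genes. Per FPKM of ligand, the 6 binding protein genes had 0.498, 0.587 and 23.3 FPKM. In the adult library, 79.5% of the binding protein sum was Igfbp7, whose product binds these ligands weakly, so the ratio is not a measure of binding capacity. Igfbpl1, a gene similar in sequence to binding proteins, was at 13.03, 4.31 and 0.182 FPKM (change -3.57), and Igfals, which stabilises the complex of Igf1 and Igfbp3 in blood, was at 0.0399 FPKM, listed at 0 and at 2.18 FPKM (change over the whole span 1.61). Igfbp1 was at 0.197, 0.0257 and 0.0690 FPKM and thus hardly detected.

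Among receptors, Igf2r, which clears Igf2 from the cell surface, was at 444, 173 and 49.1 FPKM (change -3.15). Insr and Ghr, named here after their values were seen, had their highest level in adult ventricle. Insr, the insulin receptor gene, was at 13.0, 9.41 and 30.3 FPKM, so that the ratio of Insr to Igf1r was 0.501, 0.731 and 4.66. Ghr, the receptor of growth hormone, which induces Igf1 in liver, was at 20.2, 26.4 and 56.2 FPKM, so that adult ventricle had 9.73 FPKM of Ghr per FPKM of Igf1, against 1.89 at E10.5.

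Of 7 genes of proteases that cut binding proteins and their inhibitors, 3 were higher and 3 lower over the whole span (3 and 2 with median-of-ratios scaling). The shares of all mRNA loci were 14.8% and 27.3% as deposited, and 19.97% and 18.4% with median-of-ratios scaling. These shares also apply to the adaptor and PI3K groups. The secreted serine protease genes Htra1 and Htra3 were at 4.26, 34.6 and 29.6 FPKM (change 2.54) and at 1.29, 0.827 and 10.51 FPKM (2.33). Stc1, encoding a stanniocalcin that inhibits Pappa, was at 4.46, 3.67 and 0.719 FPKM (-1.67). Htra1 was thus already high at E13.5 and Htra3 only in the adult library.

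Of 8 adaptor genes, 1 was higher and 3 were lower (1 and 2 with median-of-ratios scaling). Grb10, an imprinted gene of an inhibitory adaptor, was at 526, 439 and 34.8 FPKM (-3.88), while the related Grb14 was at 15.7, 14.04 and 57.3 FPKM (1.81). Of 19 genes of the PI3K and Akt arm, 1 was higher and 2 were lower, and all 19 reached 1 FPKM. Pik3r1, a regulatory subunit of PI3K, was the higher one at 8.99, 10.2 and 36.7 FPKM (1.92). With median-of-ratios scaling, 0 genes of this arm were lower. The largest changes of the 42 genes as deposited were thus those of Igf2, Grb10, Igfbpl1 and Igf2r, which were all lower. With median-of-ratios scaling Htra1, at 2.92, exceeded Igf2r, at -2.74, in size.

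**Figure D4:**
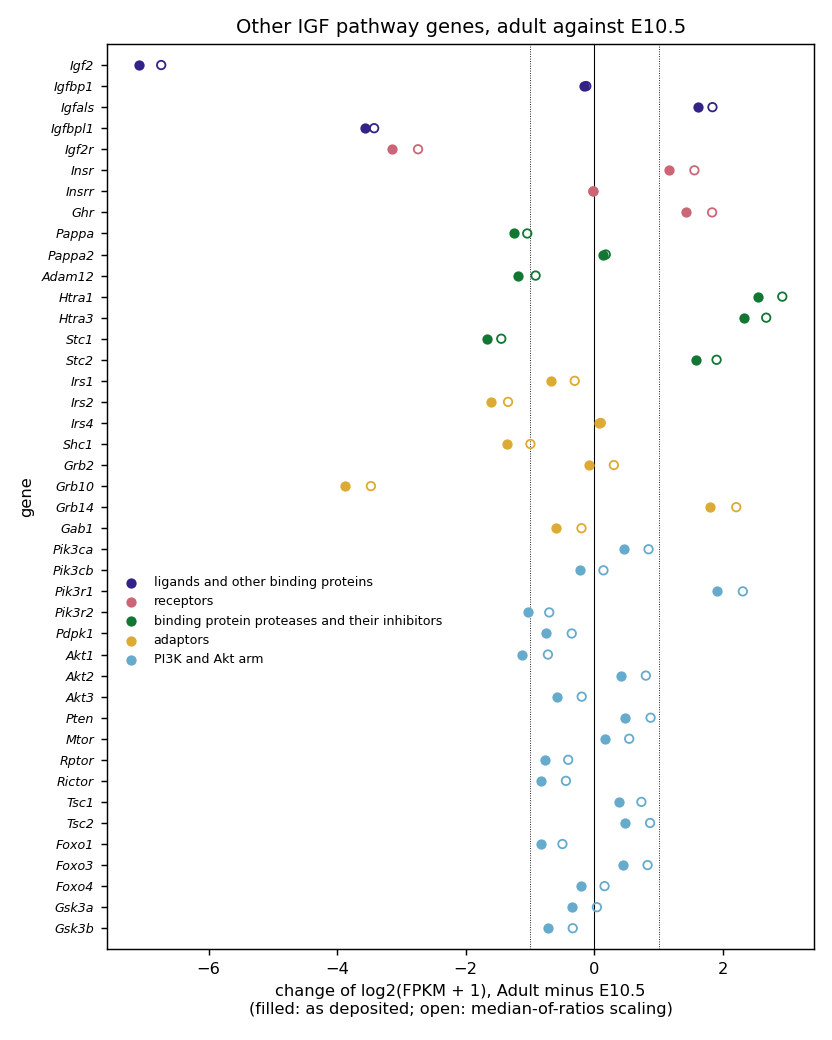
Difference in log2(FPKM + 1), adult minus E10.5 (x axis), for 42 other genes of the pathway (y axis), coloured by role, as deposited (filled) and with median-of-ratios scaling (open), with dotted lines at -1 and 1. Igf2 lies farthest left at -7.08, and Htra1 farthest right at 2.54.

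Genes with the most similar course were sought among 7365 single-gene mRNA loci that reached 10 FPKM in any library, by the Euclidean distance of both successive changes over the 3 libraries. The nearest to Igf1 were Sulf1 (distance 0.0585) and Mea1 (0.0644), and the nearest to Igf1r were Bcr (0.0473) and Mdc1 (0.0542). Igfbp4 lay next to Smarcb1 and Gnai1 (0.0504 and 0.0663), and Igfbp3 next to Klhl2 and Mrpl38 (0.0101 and 0.0209). Rnf13 and 4930471M23Rik were nearest to Igfbp6 (0.0304 and 0.0380), Ptprc and Sult1a1 to Igfbp7 (0.0996 and 0.105), and Mms22l and Bmp5 to Igfbp5 (0.102 and 0.107). Igfbp2 had the fewest neighbours, with Hist1h2ab at 0.194 and Rrm2 at 0.285. Within a distance of 0.5 there were 11 loci for Igfbp2, 43 for Igfbp7 and 54 for Igfbp5, but 1387 for Igfbp3. The distance rests on log2(FPKM + 1), so genes at different levels can lie close although their fold changes differ. Ptprc was at 0.192, 1.11 and 15.0 FPKM, against 12.5, 22.6 and 166 FPKM for Igfbp7. Rnf13 was at 24.6, 26.0 and 69.3 FPKM, against 0.683, 0.768 and 3.71 FPKM for Igfbp6. With 3 libraries, such likeness is a description only.

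Finally, the surroundings of the genes were examined. Igfbp2 and Igfbp5 lie end to end on opposite strands of chromosome 1 with a gap of 5470 bp, and were both lower in the adult. Igfbp3 and Igfbp1 lie in the same way on chromosome 11 with a gap of 3291 bp, where Igfbp1 was hardly detected. Loci without a protein-coding transcript that overlapped a member or started within 10000 bp of it were found for Igf1 and Igf1r only. The one near Igf1r, an unspliced transcript of 1315 nt antisense to Pgpep1l and 3161 bp past the end of Igf1r (chromosome 7, 68236875 to 68238189), was at 1.39, 0.0673 and 0.0596 FPKM. The one near Igf1 stayed below 1 FPKM.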

How the data were processed

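The labels name TopHat, Bowtie and Cufflinks and the mm10 build. Total RNA libraries were mapped with TopHat2 and assembled by the authors with and without UCSC transcript annotations, and the authors deposited 1 table of FPKM values per merged locus and library, with the exons of the merged transcripts. Further versions and the options are not given in the sources used here. All 48 introns of matched RefSeq transcripts of the members are in GENCODE M21 (GRCm38), the assembly of mm10.

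A gene was represented by the locus with most matching transcripts, and an mRNA locus had a match to a RefSeq coding transcript. A change is the later minus the earlier log2(FPKM + 1), with a pseudocount of 1 FPKM, and was counted from 1. Alternatives were other scalings, a pseudocount of 0.1 FPKM, summed loci, a limit of 2 and other filters on low values. The deposited columns sum to 601115, 808971 and 443471 FPKM in stage order, of which mRNA loci held 56.6%, 53.6% and 74.6%. Median-of-ratios factors were 1.07, 1.19 and 0.804. Fragment numbers were estimated from the commonest low value of FPKM times length (0.0625, 0.0325 and 0.0475) in spliced loci of 1000 to 2500 nt with 1 transcript, and from the shortest matching transcript of each gene. The counting was tested on simulated data with planted changes.

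The members, the pathway list and the marker lists were chosen with earlier results of these data known. All 8 members are named, as are the 10 pathway genes with the largest whole-span change past 1, the 2 loci of most similar course per member, and neighbouring non-coding loci at 1 FPKM or more. Promoter windows were taken from RefSeq (GRCm38.p6), where all 8 members matched. Protein sequences were not used here. Calculations used Python 3.11.15, numpy 2.4.6, pandas 2.3.3, scipy 1.17.1 and matplotlib 3.10.9.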

Additional observations from a re-analysis of the deposited data

How the results depend on the processing

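Both adult comparisons kept their counts of members under median-of-ratios scaling, scaling by the sum of mRNA loci without globin and mitochondrial loci, and a pseudocount of 0.1 FPKM. With a change limit of 2, 1 member was higher in each adult comparison (Igfbp7) and 0 in the embryonic step, with 3 lower in each adult comparison. The counts of the embryonic step rest on Igf1 and Igf1r near the limit. They became 0 higher and 1 lower with median-of-ratios scaling, 0 higher and 2 lower with scaling by the sum of mRNA loci (Igf1r and Igfbp5), and 1 higher and 1 lower with a pseudocount of 0.1 FPKM. Of 96 recalculated changes of the members, 57 stayed within their counting interval and 39 moved further. The 57 include all changes recalculated with summed loci, which could not differ because each member has 1 locus. Of the 96 changes, 5 took the other sign, all of them below 1 in size. These 5 were Igfbp2 (with both scalings), Igfbp4 and Igfbp6 in the embryonic step and Igfbp3 over the whole span, with scalings that shift a whole library. Of 252 changes of the pathway genes, 12 took the other sign and 85 moved by more than 1.5 times or across 0, while none past 1 reversed. The shares of mRNA loci moved more. For the embryonic step they were 10.2% higher and 7.54% lower with a pseudocount of 0.1 FPKM, and 3.36% and 8.64% with scaling by the sum of mRNA loci. With a limit of 2 they were 0.851% and 0.247% in the embryonic step, 4.41% and 9.88% in the late step and 5.59% and 8.10% over the whole span, and without a filter on low values 3.68% and 3.03%, 8.14% and 20.03%, and 9.23% and 17.05%. Summing all loci of a gene changed nothing, since each member has 1 locus, and no member locus joined another gene. No paired analysis was possible because 1 library stands for each stage and none share a replicate. Values under 1 FPKM, as for Igfbp6 in the embryo and Igfbp2 in the adult, rest on few fragments.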
